A study of Peromyscus maniculatus with 10 samples.

Results

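The 200 genes with the largest difference in expression between animals were examined in primary ear fibroblasts of outbred deer mice. They were selected on their measured spread. Among the 4879 genes on numbered chromosomes with a mean raw count of 1000 to 10000, they had the largest standard deviation (SD) of log2(CPM + 1) over 10 animals, where CPM are the counts per 1000000 counts of a library, scaled by TMM factors. They make up 4.10% of these 4879 well-expressed genes and are part of the 25394 genes that were counted. The fibroblasts came from the ears of 10 male Peromyscus maniculatus of the BW stock, 3 weeks old, with 1 culture and 1 library per animal. The study asked whether differences between outbred animals in the unfolded protein response of fibroblasts bear on weight gain and inflammation, and it used these libraries to relate BiP, a chaperone of that response, to inflammatory cytokines. The labels name no treatment and no group within the 10, which were therefore described as a single group. Animal and culture cannot be told apart, and the labels give neither the passage nor the litter. A lower level of a transcript in a whole culture can come from fewer cells that make it or from less RNA per cell, which these libraries do not tell apart.

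Fibroblasts are the cells of connective tissue that make and remodel the extracellular matrix. In skin they occur as several populations with programmes of their own, and they respond to inflammation, mechanical load and growth factors by changing the expression of many genes together. A closed colony that was founded from wild animals retains genetic differences between individuals, which an inbred strain does not. Genes are listed here by Ensembl identifier and position on the HU_Pman_2.1 genome. None of the 200 identifiers was paired with a symbol in the gene table at hand, so the function of the members and the markers of fibroblasts and of other cell types were not examined, and no sequence is shown.

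Between 20811334 and 31912526 read pairs per animal fell on genes. The 200 members took 1.58% of the counts in animal #36905, the lowest share, and 2.37% in animal #36789, the highest. Animals #36764 and #36789 stood apart most often, as the highest or lowest library of 42.8% and 32.9% of all well-expressed genes.

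The SD of the members ranged from 0.75 to 2.58 on the log2 scale with a median of 1.05, whereas the median over all 4879 well-expressed genes was 0.15. These values chose the members and are given as a description. The last gene inside the limit was ENSPEMG00000024134 on chromosome 17 from 5412982 to 5504431, with an SD of 0.754, which was 0.47 without animal #36764, its lowest library. The first gene outside it was ENSPEMG00000013048 on chromosome 3 from 126049185 to 126112455, with an SD of 0.753, so the limit separates genes of nearly the same spread. An SD above 1 was recorded for 115 members, above 1.5 for 30 and above 2 for 5.

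The animal with the highest CPM had a median of 10.7 times that of the lowest animal over the members, against 1.39 times over all well-expressed genes. Without animals #36764 and #36789 these medians were 5.07 and 1.29 times. This ratio was above 10 for 108 members and above 100 for 7. The highest ratios rest on few counts in the lowest library, 14 for ENSPEMG00000018537 (1259 times) and 2 for ENSPEMG00000020103 (1178 times). Counting error was small beside the SD of the members. On its own it would give an SD of 0.043 on the log2 scale for the median member and 0.33 at most, or 4.03% and at most 16.6% of the member's own SD. The smallest count of a member in any library was 2, and 12 members had fewer than 100 counts in their lowest library. The biological coefficient of variation, the spread beyond counting error that edgeR estimates, had a median of 62.3% and ranged from 41.1% to 186% over the members, against a median of 13.3% over all well-expressed genes.

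**Figure D1:**
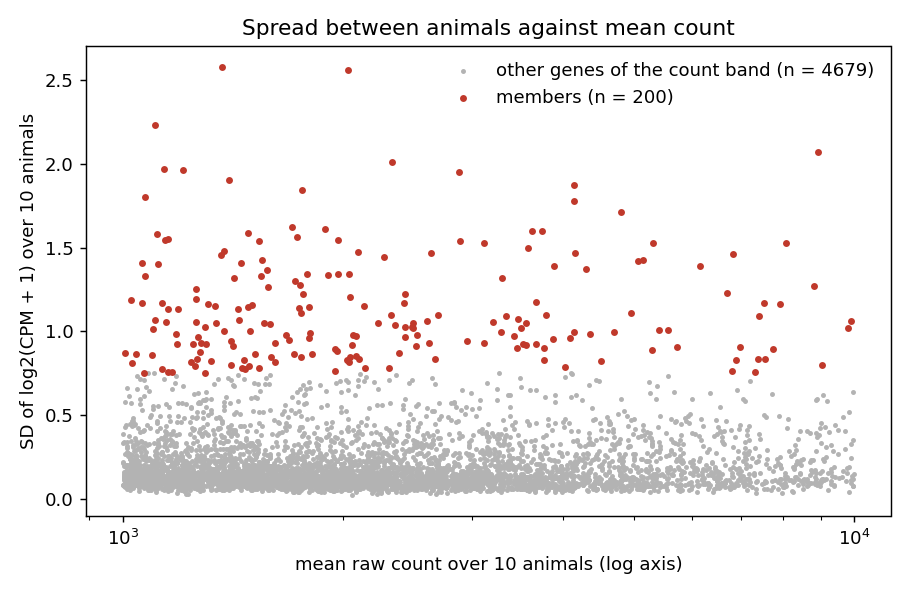
Spread between 10 animals (SD of log2(CPM + 1), vertical axis) against the mean raw count (horizontal axis, log scale) for the 200 members in red and the 4679 other well-expressed genes in grey, 1 point per gene. The members lie above 0.75 over the whole range of counts, and most of the other genes lie far below them.

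Animal #36764 was the highest for 54 members and the lowest for 69, so that it held an extreme of 61.5% of the members, against 42.8% of all well-expressed genes. Animal #36907 was the highest for 44 members and the lowest for 44, or 44.0% of the members against 21.9% of all well-expressed genes. Animal #36789 was the highest for 26 and the lowest for 35 (30.5%, against 32.9% of all), and animal #36798 the highest for 42 and the lowest for 22 (32.0%, against 29.0%), so these animals led about as large a share of the members as of all well-expressed genes. These 4 animals, picked after the values were seen, supplied the highest library for 83.0% of the members and the lowest for 85.0%, where the shares over all well-expressed genes were 65.5% and 61.1%. Animal #36797 held an extreme of 2.5% of the members and of 6.29% of all well-expressed genes, the smallest share of any animal in both.

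A library was called outlying when its gap to the next, over the range of the 10 animals, was above Dixon's 95% critical value for 10 values. This held for 24 members (12%), against 8.81% of the 4879 well-expressed genes. With the selection repeated, the count was 14 without animal #36905 and 15 without #36906. The outlying library was the highest for 10 members (5.00%, with 4.53% over all well-expressed genes) and the lowest for 14 (7.00%, with 4.28% over all). The members were chosen on the same values, so nothing is read from these shares. All 10 members with an outlying highest library had it in animal #36764 or animal #36789, with 5 each, as did 89.1% of the 221 well-expressed genes with an outlying highest library. Animal #36764 was the outlying lowest library for 8 of the 14 members (57.1%) and for 54.1% of the 209 such genes in all. When the 10 values of a gene were ordered, the widest step set apart the lowest animal alone for 65 members and the highest animal alone for 37. It set apart 2 or 3 animals at the low end for 43 and 17 members, and at the high end for 11 and 12. Shares over all well-expressed genes are not given for these counts, so nothing is read from them. The widest step had a median of 1.12 on the log2 scale.

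Most members varied together along a single order of the animals. In a tree built on the Pearson's R of their levels over the 10 animals, cut at an R of 0.5, 170 of the 200 members (85.0%) fell into a pair of groups that ran in opposite directions. Group 1 held 99 members and group 2 held 71. The mean pairwise R was 0.74 within group 1 and 0.74 within group 2, and it was -0.73 between a member of one and a member of the other. Of the 7029 pairs across the groups, 7023 had a negative R. The groups were defined by these values, so the opposite direction is a description and not a test. Group 1 also holds pairs with R down to -0.27, since the tree averages over members.

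Animal #36764 stood at one end of this order, and animals #36907 and #36798 at the other. The mean level of group 1, relative to each gene's mean, was -1.87 on the log2 scale in animal #36764, -1.18 in #36789 and -0.57 in #36746. It lay between -0.08 and 0.31 in animals #36787, #36905, #36906 and #36772. In animals #36797, #36798 and #36907 it reached 0.88, 1.20 and 1.24. The mean level of group 2 was 1.60 in animal #36764, 0.94 in #36789 and 0.80 in #36746, and it was -0.56 in #36797, -1.18 in #36798 and -1.43 in #36907. From end to end, the mean of group 1 spanned 8.66-fold and that of group 2 spanned 8.14-fold. Without animal #36764 these spans were 5.38-fold and 5.17-fold. All 99 members of group 1 were above their own mean in animal #36798, and all 71 of group 2 were below theirs in animal #36907. In 95 of the 99 members of group 1, both animals #36764 and #36789 lay below all 3 of animals #36797, #36798 and #36907, and in 67 of the 71 members of group 2 both lay above all 3. The first held for 27.2% and the second for 26.3% of all well-expressed genes. The groups were formed on these values, and nothing is read from the counts.

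**Figure D2:**
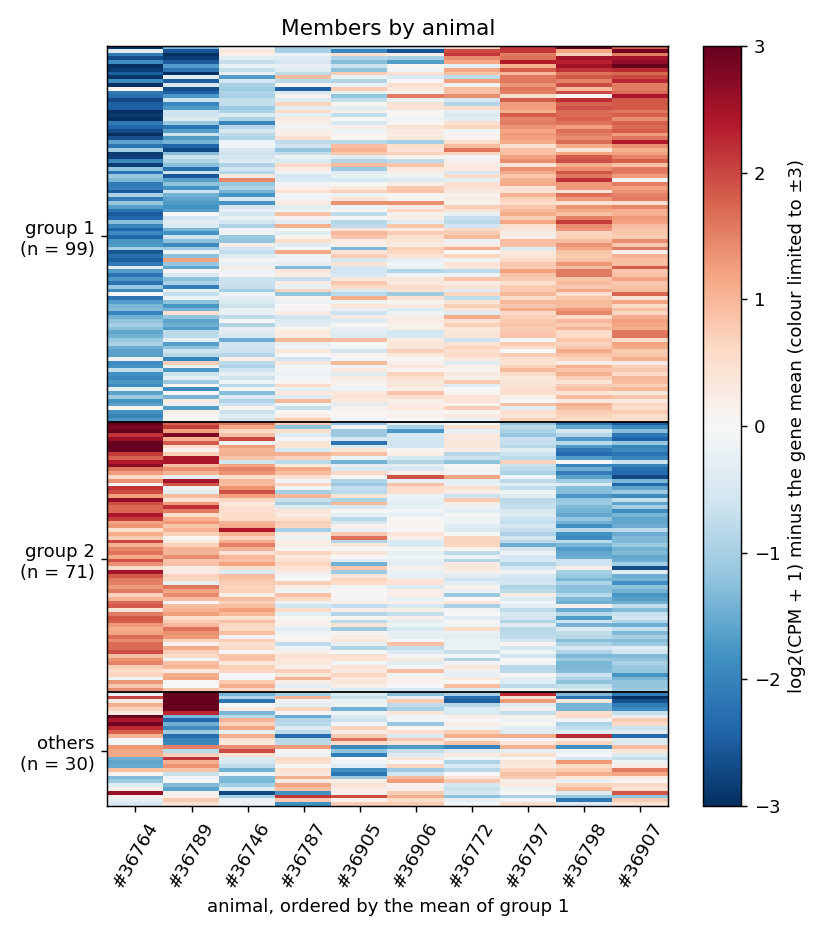
Level of the 200 members (rows, in groups of members that vary together) in the 10 animals (columns, ordered by the mean of group 1), as log2(CPM + 1) minus the mean of the gene. Group 1 goes from low in animal #36764 to high in animal #36907, and group 2 goes the other way.

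Depth differed within the ends of this order. Animal #36789 had the smallest library and animal #36764, at the same end, had one of 30607083 counts, while animal #36907 at the other end had the largest. The share of counts on the 10 genes with the most counts was highest in animal #36764, at 11.3%, and lowest in animal #36789, at 7.34%. The part of depth in the order of the animals was not tested.

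Subsets of the animals are described next. Every one of them took part in the choice of the members, so the values are no independent support. Over the 8 animals other than #36764 and #36789, the mean profiles of group 1 and group 2 had an R of -0.96, against -0.98 over all 10. The median SD of the same 200 members was 0.78 over these 8 animals, where all well-expressed genes had a median of 0.12. Among the 3 animals numbered 36905 to 36907 it was 0.80 against 0.11. When all steps were repeated without #36764 and #36789, the newly chosen 200 genes held 72 members of group 1, of which 59 fell into one large group, and 52 members of group 2, of which 48 fell into another.

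The member closest to the rest of group 1 was ENSPEMG00000000056, a gene of 1 exon on chromosome 7 from 53156482 to 53157768 on the minus strand. Its mean R with the other members of the group was 0.85. Its level was 10.2 CPM in animal #36764, 17.8 in #36789 and 27.5 in #36746. It was 46.5 in animal #36787, 48.5 in #36905, 79.5 in #36906 and 85.7 in #36772, and it rose to 146 in #36797, 217 in #36907 and 231 in #36798. The SD was 1.47 on the log2(CPM + 1) scale around a mean of 5.93 (n = 10). No library of this gene was outlying, and its widest step between animals was 0.76 on the log2 scale.

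ENSPEMG00000019296 had the largest spread of group 1. It has 39 exons and lies on chromosome 21 from 49972370 to 50057791. Its lowest level was 8.28 CPM in animal #36764, the median over the 10 animals was 99.7, and the highest was 1376 in animal #36798. These levels rest on 237 counts in #36764 and 42106 in #36798. The next lowest animal, #36789, had 49.5 CPM and the next highest, #36797, had 583. The widest step, of 2.44 on the log2 scale, set animal #36764 apart from the other 9 animals. ENSPEMG00000025223 on chromosome 10 from 94619121 to 94627528 had the second largest SD of the group, at 2.01. Its levels ran from 5.41 CPM in animal #36906 and 5.43 in #36789 through a median of 37.8 to 284 in #36907. It departed from the order of the group, because animal #36906 was as low as animal #36789 while animal #36764 had 28.4 CPM.

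The member closest to the rest of group 2 was ENSPEMG00000001748 on chromosome 19 from 55529196 to 55777170, with 11 exons spread over 247975 bases and a mean R of 0.85 with the other members. Its level was 165 CPM in animal #36764, 58.5 in #36746 and 47.8 in #36789, and it was 5.75 in #36798 and 5.65 in #36907. The other 5 animals lay between 15 and 30.4 CPM. The gene reached the minimum mean count of 1000 only through animal #36764, with 4724 counts there and a mean of 1063.6. The direct R of this gene with ENSPEMG00000000056, its counterpart in group 1, was -0.96 over the 10 animals.

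ENSPEMG00000030943 on chromosome 3 from 47841576 to 47853605 had the highest mean count of all members, 9912, and belonged to group 2. Its lowest level was 83.1 CPM in animal #36798, its median 323 and its highest 750 in animal #36764. The highest 4 animals, #36764, #36746, #36789 and #36787, lay between 472 and 750 CPM, and the lowest, #36907 and #36798, at 106 and 83.1. Another member of group 2, ENSPEMG00000022381, lies on the same strand from 47762600 to 47777034 and had an R of 0.97 with it. Both genes have 10 exons and an exonic length of 951 bases. How far the reads of these 2 genes can be told apart was not tested, so their counts are uncertain. ENSPEMG00000019085 had the largest spread of the group, with 308 CPM in animal #36764, a median of 26.8 and 4.69 in #36907. It has 26 exons and lies on chromosome 1 from 135687220 to 135842339. It reached the minimum mean count of 1000 only through animal #36764, with 8811 counts there and a mean of 1760.7. ENSPEMG00000019720, with 41 exons on chromosome 21 from 10815237 to 10876895, had 559 CPM in animal #36764, 335 in #36789 and 177 in #36746, a median of 58.7 over all animals and 19.7 in #36907. It departed from the mean profile of the group in animal #36787, which at 33.3 CPM lay below animal #36797 at 44.2.

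The coordination measure of the study was applied to the members. For a pair of genes it correlates, over all transcripts, the R of each transcript with 1 gene and its R with the other. It was computed over the 13935 transcripts whose mean count reached 10. The coordination of the 19900 pairs of members had a median size of 0.85, and the direct R of the same pairs had a median size of 0.69. The coordination was at least 0.9 for 19.1% of the pairs and at most -0.9 for 17.9%. Its median was 0.90 within group 1, 0.90 within group 2 and -0.90 between them. Between ENSPEMG00000000056 and ENSPEMG00000001748 it was -0.99. The groups were cut, and these genes picked, on the direct R of the same values, so the coordination within and between groups is no second support. All pairs share the same 10 libraries, and pairs of genes are not replicates. Values for pairs of other well-expressed genes are not given, so these shares are not read as particular to the members.

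The 30 other members were outside groups 1 and 2. They fell into 5 groups of 3 to 6 genes, which held 20 members, and into smaller sets and single genes, which held 10.

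Group 3 held 6 members, all of them highest in animal #36789, where their mean level was 4.77 above each gene's mean on the log2 scale. The next animal, #36764, was at 0.69, and animal #36907 was at -2.06. The 3 members with the largest SD of all belong to it, and these 3 reached the minimum mean count of 1000 only through animal #36789. ENSPEMG00000018537 on chromosome 20 from 67879305 to 67902446 had 566 CPM in animal #36789, 28.0 in #36797 and 0.45 to 4.30 in the other 8 animals. It rested on 12401 counts in animal #36789 and 14 to 123 in those 8, and its SD was 2.58. Without animal #36789 the SD was 1.24 and the mean count 142, against 1368 with it. ENSPEMG00000005282 on the same chromosome from 68508292 to 68511818 had 757 CPM in animal #36789, 55.8 in #36764 and 0.77 in #36907, with a median of 9.20. The range of its other 9 animals was wide, and animal #36789 was not an outlying library for this gene. Without it, the SD went from 2.56 to 1.66 and the mean count from 2029 to 414. ENSPEMG00000018789 on chromosome 8 from 85531118 to 85535218 had 378 CPM in animal #36789, 28.2 in the next highest and 0.96 in #36907, with a median of 11.8. Without animal #36789, its SD was 1.47 in place of 2.23 and its mean count 310.3. Among all 200 members, 33 had a mean count under 1000 once their highest animal was left out.

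The other members of group 3 were named after their values were seen. ENSPEMG00000013750 on chromosome 8 from 102011240 to 102042376, with 40 exons, had 1402 CPM in animal #36789, 12.6 times the next highest animal. ENSPEMG00000014514 on chromosome 20 from 68476947 to 68484409 had 1274 CPM, also 12.6 times the next. ENSPEMG00000029887, a gene of 1 exon on chromosome 5 from 105980550 to 105981629, had 242 CPM, 3.44 times the next. Animal #36789 was an outlying library for each of these 3 genes. Leaving it out lowered their SDs from 1.87, 1.78 and 0.98 to 0.91, 0.97 and 0.61, the last of which is below the limit for members.

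**Figure D3:**
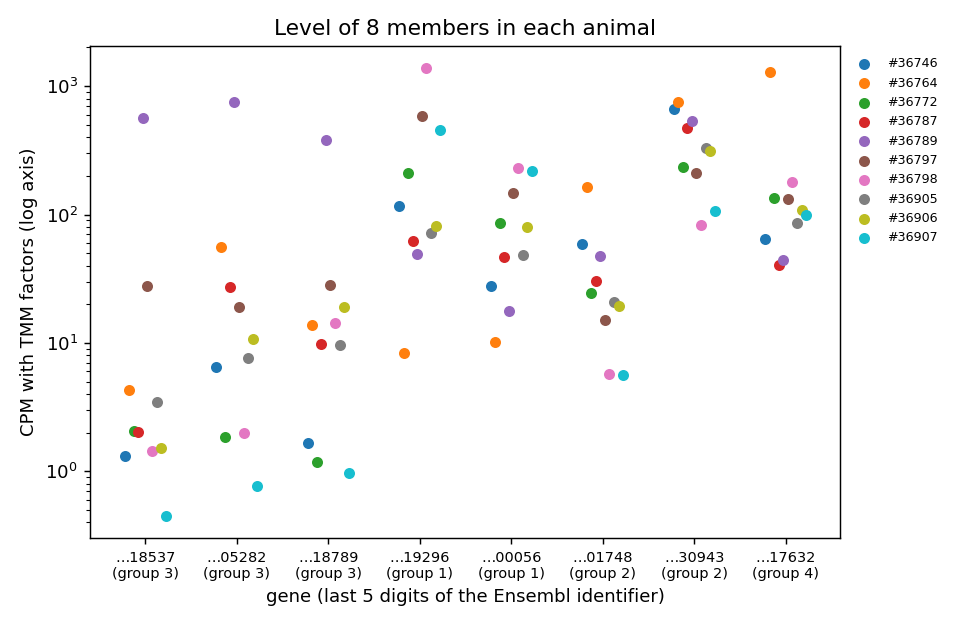
CPM (vertical axis, log scale) of 8 members in each of the 10 animals, 1 coloured point per animal. Animal #36789 stands alone at the top of the first 3 genes, which belong to group 3, and animal #36764 at the top of the last, which belongs to group 4.

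The 3 members of group 3 on chromosome 20 lie within 633 kb. This window was examined because of them. It holds 29 annotated genes, of which 10, the 3 members included, reached a mean count of 10. Of the 7 that are not members, 4 reached it only through animal #36789, so that they had to be high there. Of the 3 whose mean count was at least 10 in the other animals, 1 was highest in animal #36789, where 16% of all 13935 transcripts were highest in that animal. The 4 genes with few counts elsewhere had 307, 400, 312 and 572 counts in animal #36789, and no other library had more than 19. ENSPEMG00000014514 and ENSPEMG00000005282 are next to each other there, 23882 bases apart on opposite strands, and had an R of 0.92.

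The 5 members of group 4 lie on 5 chromosomes, were all highest in animal #36764 and had a mean level of 2.56 there, against 0.36 in the next highest animal, #36746, and -1.62 in the lowest, #36789. Animals #36764 and #36789, which stood at the same end in groups 1 and 2, were therefore at opposite ends here. ENSPEMG00000017632 on chromosome 23 from 25974944 to 26019529 had 1277 CPM in animal #36764, 180 in the next highest and 40.1 in the lowest, with a median of 105. ENSPEMG00000018458 on chromosome 19 from 7499347 to 7721191 had 217 CPM in animal #36764, 46.4 in the next highest and 9.86 in the lowest, #36789. The other 3, ENSPEMG00000019780, ENSPEMG00000020076 and ENSPEMG00000026474, were 2.67, 2.09 and 2.09 times as high in animal #36764 as in the next highest animal. Without animal #36764, the SD of the 5 members ranged from 0.59 to 0.99, below the limit for 2 of them. That of ENSPEMG00000017632 went from 1.39 to 0.73, and that of ENSPEMG00000018458 from 1.25 to 0.78, with a mean count of 709 in place of 1258.

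Groups 5, 6 and 7 held 3 members each. Group 5 was low in animals #36789, #36787 and #36907, with means of -2.05, -1.32 and -1.04. The medians were -1.97, -0.85 and -0.42, and the lowest gene was at -2.31 in both #36787 and #36907. Group 6 was high in animals #36746 and #36764, at 1.28 and 1.20, and low in #36905, at -1.73. Group 7 was the reverse of group 4, at 1.52 in animal #36789 and -1.52 in animal #36764, and the mean profiles of these 2 groups had an R of -0.93.

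**Figure D4:**
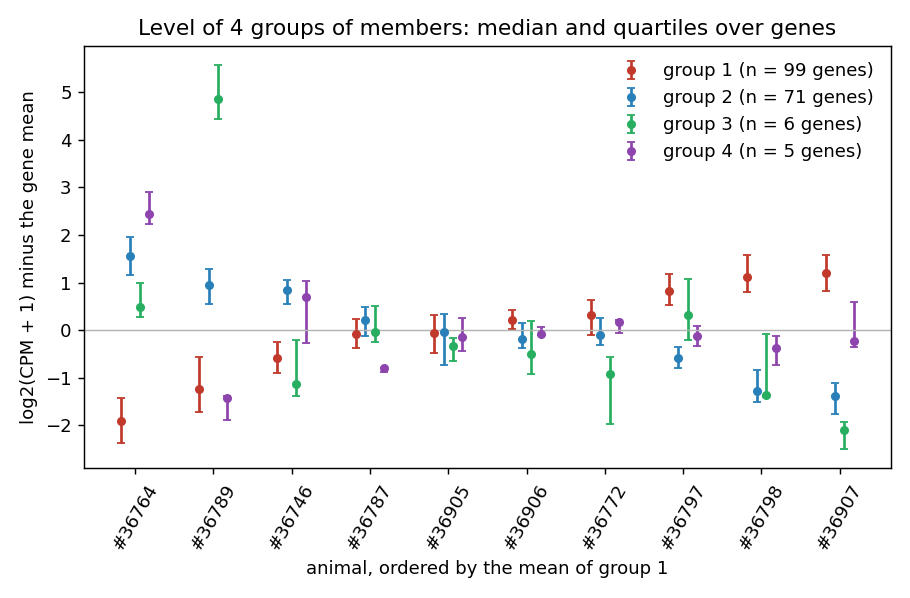
Level of groups 1 to 4 in each animal as log2(CPM + 1) minus the gene mean, with points for the median and bars for the quartiles over the genes of a group. Groups 1 and 2 cross over from left to right, group 3 stands out in animal #36789 and group 4 in animal #36764.

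The profiles of groups 1 and 2 were also looked for in genes that the selection could not reach. A gene was counted as following a group when its R with the mean profile of the group was at least 0.8 over the 10 animals. Of the 5432 genes with a mean count of 100 to 1000, 558 (10.3%) followed group 1 and 380 (7.00%) followed group 2. Of the 374 genes with a mean count over 10000, 41 (11%) followed group 1 and 52 (13.9%) group 2. On the X chromosome, which was left out of the selection, 26 of 122 genes of the same count band (21.3%) followed group 1 and 8 (6.56%) group 2. On scaffolds, which were left out as well, 2 of 30 such genes (6.67%) followed group 1 and none followed group 2. All of these genes were measured in the same libraries as the members, and the counts are a description.

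Within the count band, 64.0% of the members followed one of the groups, 37% group 1 and 27% group 2, and these members helped to define the profiles. Of the 200 genes next in order of SD, whose SD was 0.50 to 0.75, 21.0% followed group 1 and 28.0% group 2, so the share for group 2 was as high outside the limit as inside it. Over all 4679 well-expressed genes that are not members, the shares were 8.29% and 9.49%, and of the 200 most stable genes none followed group 1 and 1 followed group 2. The first principal component held 66.1% of the scaled variance of the members and 33.4% of that of the other well-expressed genes, and the positions of the animals on the components had an R of 0.99 in size (n = 10).

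**Figure D5:**
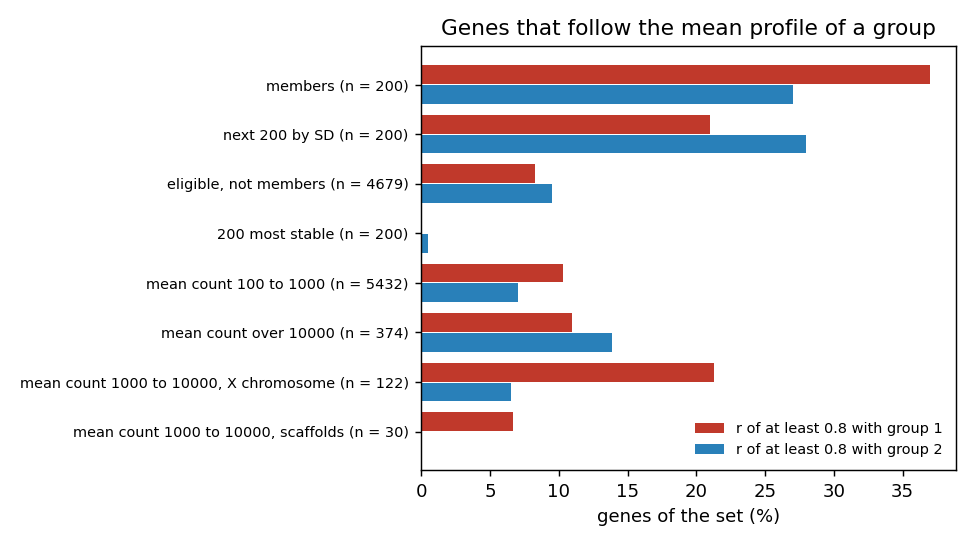
Share of genes (horizontal axis, %) whose R with the mean profile of group 1 (red) or group 2 (blue) was at least 0.8, for the members and 7 other sets of genes. For group 1 the share is highest among the members, at 37%, for group 2 it is 27% among the members and 28% among the next 200 genes, and it is near 0 among the 200 most stable genes.

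The spread limit of the members was also reached outside the band. An SD of at least that of the last member was recorded for 413 of the 5432 genes with a mean count of 100 to 1000 (7.60%), for 31 of the 374 with over 10000 (8.29%), and for 6 of the 122 genes on the X chromosome (4.92%). Within the band the share is fixed by the choice of 200 genes.

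The mean count, on which the selection set a lower and an upper limit, had a median of 1969 in the members, against 2050 over all well-expressed genes, and the level per length, which derives from it, had a median of 48.4 FPKM, against 48.7. Gene structure was not used in the selection. The median exonic length was 1690.5 bases, against 1620. The median number of exons was 9, against 11, and 8 members had a single exon (4.00%, against 2.87%). The span from the first to the last exon was more often extreme. It was over 100 kb for 41 members (20.5%), against 10.9% of all well-expressed genes, and under 5 kb for 46 members (23.0%), against 15.5%. In the 200 most stable genes the corresponding shares were 5.00% and 11%. Long spans made up 26.3% of group 1, 15.5% of group 2 and 13.3% of the 30 other members, and short spans 17.2%, 28.2% and 30.0%. These are shares without a test.

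The members lie on all 23 numbered chromosomes. Chromosome 20 had the highest share, with 13 of its 171 well-expressed genes (7.60%), of which 8 belong to group 1 and 3 to group 3. Chromosome 22 had the lowest, with 3 of 168 (1.79%). On chromosome 1, which carries more well-expressed genes than any other, 14 of 530 were members (2.64%). Another member lay within 1 Mb of 54 members (27%), and a member lay within 1 Mb of 23.1% of all well-expressed genes. Of the 35 pairs of members within 1 Mb, 16 were of the same group and 13 joined a member of group 1 to a member of group 2. Among all 19900 pairs of members, 7029 joined these 2 groups, and nothing is read from the counts within 1 Mb.

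In 5 pairs, members were next to each other and less than 100 kb apart, and 4 of these pairs had a positive R. No share over all well-expressed genes is given beside these counts, and nothing is read from them. With the selection repeated without animal #36789, there were 3 such pairs. The closest was that of ENSPEMG00000026292, on chromosome 11 from 41018306 to 41115629, and ENSPEMG00000030533, which lies inside its span from 41083564 to 41100944 on the same strand without overlap of exons. Their R was 0.996. The count of ENSPEMG00000030533 was 44.1% to 53.7% of that of ENSPEMG00000026292 in every animal. The former had 36.7 CPM in animal #36764 and 330 in #36907, and the latter 83.0 and 690. Whether they are separate transcripts was not tested, so they may not be independent members.

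ENSPEMG00000024494, on chromosome 11 from 78470081 to 78481425, and ENSPEMG00000025705, from 78494567 to 78509570, lie on the same strand, belong to group 2 and had an R of 0.94. Both have 8 exons and an exonic length of 1368 bases. ENSPEMG00000024494 was highest in animal #36764, at 109 CPM, and ENSPEMG00000025705 in animal #36789, at 233. How far their reads can be told apart was not tested, and their counts are uncertain for that reason. In 3 members, part of an exon is shared with an opposite-strand gene (1.5%, against 1.27% of all well-expressed genes), and strand was not used in counting, so the counts of these 3 are uncertain as well.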

How the data were processed

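Total RNA of primary ear fibroblasts was sequenced in 1 library for each of 10 animals. Per the file headers and the labels, the authors trimmed reads with Trim Galore 0.4.5, aligned read pairs to HU_Pman_2.1 with STAR 2.7.2b, kept uniquely mapped pairs and counted them on exons of Ensembl release 98 with featureCounts of Subread 1.5.3, without the option for stranded libraries. The deposited values are raw counts per gene, not normalized or pooled, and the exonic length, another value in the deposited table, was used for FPKM. All sample columns were mapped to animals by the labels.

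CPM were computed from column totals times TMM factors, with a pseudocount of 1 for log2 values. The factors came from edgeR 4.0.16 under R 4.3.3, as did the biological coefficient of variation, the square root of the gene-wise dispersion of a model with an intercept only, for genes whose mean count reached 10. Other steps ran under pandas 2.3.3, scipy 1.17.1, numpy 2.4.6 and Python 3.11.15. The tree used average linkage on 1 minus R, cut at 0.5. Exons that overlap within a gene were merged before they were counted. There was no contrast to test in a single group. The selection and grouping were also run on simulated counts, of which no values are given and on which no result here rests.

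Named genes were the 4 members with the largest SD, the member with the highest mean count, the genes at the limit, the member closest to the rest of each group of at least 10, and the 2 neighbouring pairs with the highest R. The other named genes were chosen after their values were seen. Members and lists were chosen with earlier results of these data known. Lists of named markers and pathways were not used, since 0 of the 200 members were matched to the 37364 genes of the RefSeq table of HU_Pman_BW_mat_3.1, where 0 genes carry an Ensembl identifier. The alternatives were DESeq2 1.42.0 size factors, no TMM factor, a pseudocount of 0.25, the median absolute deviation, a mean count of 500 to 20000, all chromosomes and scaffolds, each animal left out in turn, a tree cut at 0.3 and Spearman's correlation.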

Additional observations from a re-analysis of the deposited data

Results flagged for a closer look

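Dixon's criterion was applied to 38 quantities over the 10 libraries, and 11 had a library far from the others. Chance alone gives such a library in about 1 of 20 groups, but the count of 11 is not read against this rate. Many of the genes among these quantities were named after their values were seen, and the means of groups rest on the same genes. Over all well-expressed genes, 8.81% had an outlying library. The members and their groups were chosen on the same values. The gap over the range is given for each.

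Of the members with an outlying lowest library, 8 had it in animal #36764, and no other animal had more than 2, a gap of 0.75 of the range. Animal #36764 was likewise the outlying lowest library of 54.1% of the 209 well-expressed genes with one, near its share of 57.1% among the members. The mean level of group 3 was highest in animal #36789, with a gap of 0.60, and that of group 4 in animal #36764, with a gap of 0.53. For single genes, animal #36789 was far above the others in ENSPEMG00000018537 (gap 0.50), ENSPEMG00000018789 (0.49), ENSPEMG00000013750 (0.53), ENSPEMG00000014514 (0.59) and ENSPEMG00000029887 (0.49). Animal #36764 was far above the others in ENSPEMG00000017632 (0.57) and ENSPEMG00000018458 (0.51), and far below them in ENSPEMG00000024134 (0.47), the last gene inside the limit, with 11.9 CPM against 27.9 in the next lowest animal. The cause of these gaps was not tested.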

How the results depend on the processing

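The selection was repeated under 18 alternatives. The 2 that leave out animals #36764 and #36789 together, or keep the 7 animals numbered 36746 to 36798, were chosen after the data were seen. No paired analysis was possible because the 10 animals form a single group. Of the 200 members, 197 were chosen again with DESeq2 size factors, 197 with no TMM factor, 199 with a pseudocount of 0.25, 158 by the median absolute deviation, 138 with a mean count of 500 to 20000, 163 to 194 with each animal left out and 146 without #36764 and #36789, in each case after normalization and the filter on counts were repeated. The values that follow are for the 200 genes chosen anew under each alternative. The largest group, of 99 members, had 89 to 103 with each animal left out, 90 with Spearman's correlation and 75 with a tree cut at 0.3. Without both animals the largest group, of 72, held 48 members of group 2 and none of group 1, and the second, of 71, held 59 members of group 1.

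The SD at the limit, 0.754, was 0.599 by the median absolute deviation, 0.930 with a mean count of 500 to 20000, which admits more genes, 0.670 to 0.797 when single animals were removed and 0.559 without #36764 and #36789. The median SD, 1.05, was 0.756 without both and 0.895 to 1.10 on leaving out single animals. The number of members with an outlying library, 24, was 14 to 29 with each animal left out (14 without #36905, 15 without #36906), 13 without #36764 and #36789 and 11 over the 7 animals. The critical value rises as animals are removed. The number of neighbouring pairs, 5, was 3 without #36789, 3 without both animals and 3 to 5 over all such removals. The animal that was highest for most members was #36764, for 54. With each animal left out, the leading animal, whichever it was, led 49 to 75 of the genes chosen anew. It was #36907 without #36764 or #36798, #36798 without #36907, and #36746 without both #36764 and #36789. What causes these differences was not tested. With 10 animals, an R between a pair of genes is imprecise. Counts are lowest for the 12 members with fewer than 100 in their lowest library.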
